A study of Homo sapiens with 6 samples.

Results

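Transcripts of the NDUF genes, which encode the nuclear part of respiratory complex I, were described in extracellular vesicles (EVs) and in the whole cells (WC) that released them. Members were the protein-coding genes of the deposited gene table whose symbol begins with NDUFA, NDUFB, NDUFC, NDUFS, NDUFV, NDUFAB or NDUFAF. This rule found 62 gene IDs among 68201 genes counted, or 48 symbols once 14 IDs on alternate sequences, all at 0 reads, were set aside. They comprised 37 subunits, 8 assembly factors named NDUFAF and 3 genes shown apart, which are NDUFA4, NDUFA4L2 and the readthrough gene NDUFC2-KCTD14. A read was found for 47 of the 48 symbols in at least 1 library, and no NDUFC2-KCTD14 read was counted in any.

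The EV group was RNA of vesicles from the conditioned medium of untreated, wild-type K562 cells, and the WC group was RNA of the cells themselves, with 3 libraries each. K562 is a human chronic myelogenous leukemia cell line with erythroid traits, and all 6 libraries come from this single line. The vesicles were separated from the medium by centrifugation and size exclusion chromatography. RNA was reverse-transcribed by priming at the poly(A) tail, amplified by PCR and read on nanopore flow cells, and each EV library shared its flow cell with the WC library of the same replicate.

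Complex I is the first enzyme of the respiratory chain. It takes electrons from NADH in the mitochondrial matrix, passes them along iron-sulfur clusters to ubiquinone, and pumps protons across the inner membrane. The core subunits carry out this catalysis and are conserved from bacteria. Some of them are encoded in mitochondrial DNA (the MT-ND genes), and the others, together with all accessory subunits, are nuclear genes whose proteins are imported into the organelle. The NADH-oxidizing N module and the quinone-binding Q module form the matrix arm, and the proton-pumping part forms the membrane arm, which has a proximal and a distal region. Assembly factors help to build the complex and leave it when it is complete.

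The EV libraries held 881338, 560157 and 580852 gene counts, against 2480560, 3178211 and 2694992 in the WC libraries. Levels below are in CPM, the share of a library's reads on a fixed common scale, corrected with TMM factors, and higher or lower means an adjusted p under 0.05 in edgeR's quasi-likelihood test over all 8716 genes with enough reads. The spread covers these libraries only, and fewer vesicles or cells with a transcript and less of it in each cannot be told apart in bulk RNA. Among the 8716 genes, 22.8% were higher and 21.4% lower in EVs, and the median log2 fold change (EV over WC) was -0.13. With total counts in place of TMM that median was -0.78, so each direction below is relative to the other genes. Of 10 erythroid markers of K562 cells 9 were tested, of which 5 were higher in EVs, 1 was lower and 3 were not called, and HBE1 had 2 reads in EVs and 3 in WC. They ran from a log2 fold change of -1.11 for TFRC, the transferrin receptor, to 4.30 for the globin gene HBG2, whose reads may be split with its near-identical copy HBG1, and GATA1 averaged 106 ± 23.3 CPM in EVs and 99.2 ± 13.6 CPM in WC (SD, n = 3 each). Their summed level was 599 to 699 CPM in EVs and 371 to 428 CPM in WC. Among the 5 higher markers, HBZ and LMO2 had enough reads for the test in the EV libraries only. The part of these differences in the results below was not tested. The hepatocyte, islet and B cell markers ALB, INS and MS4A1 had 0 reads in every library. CD3E and COL1A1 had 1 and 2 reads over all 6 libraries. EPCAM, an epithelial adhesion gene, had 59 reads in EVs and 761 in WC, and its part in the results was not tested.

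Several members have processed copies elsewhere in the genome that differ from their own mRNA at few positions, and this bears on which gene a read was counted for. The 3 stretches below are shown because their copies took the most reads. Each is 60 nt of the parent's coding part above the matching part of its copy, 5′ to 3′ on the strand of the gene, taken from GENCODE v44 transcripts on GRCh38. Among aligned coding stretches of this length without gaps and within a single exon, each was picked for having the most differences. Other such stretches of the pair differ at no more positions. Capitals mark the positions at which parent and copy differ.
NDUFV2: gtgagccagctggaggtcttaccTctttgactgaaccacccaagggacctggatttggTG
NDUFV2P1: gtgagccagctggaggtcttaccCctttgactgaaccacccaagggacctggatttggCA
NDUFA4: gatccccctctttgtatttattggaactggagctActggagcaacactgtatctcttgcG
NDUFA4P1: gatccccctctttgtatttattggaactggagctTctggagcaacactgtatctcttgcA
NDUFAF2: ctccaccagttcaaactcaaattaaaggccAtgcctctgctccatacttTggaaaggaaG
NDUFAF2P1: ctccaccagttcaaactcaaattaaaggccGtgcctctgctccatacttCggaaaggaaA
The NDUFV2 stretch lies at chr18:9134203-9134262 on the plus strand and its copy at chr19:53223988-53224047 on the minus strand, and they differ at 3 positions. The NDUFA4 stretch lies at chr7:10938835-10938894 on the minus strand and its copy at chr1:107505247-107505306 on the plus strand, with 2 differences. The NDUFAF2 stretch lies at chr5:61152810-61152869 on the plus strand and its copy at chr2:20529553-20529612 on the minus strand, with 3 differences.

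Relative to the median gene, all 25 tested accessory subunits lay on the EV side and 4 of the 5 tested core subunits on the WC side, with NDUFS8 as the exception. The 25 include NDUFC2 and NDUFB8, which had enough reads for the test in the EV libraries only. Of 37 subunits 30 had enough reads for the test. Relative to the other genes, 16 were higher in EVs (53.3%, against 22.8% of all tested genes and 14.9% of tested protein-coding genes), 3 were lower (10%, against 21.4% and 22.2%) and 11 were not called. All 16 were accessory subunits and all 3 were core subunits. The count of 16 was 9 without WC 2 or WC 3, and the count of 3 was 1 without WC 2, EV 2 or EV 3. The median log2 fold change was 0.48 for the 30 subunits and 0.54 for the 25 tested accessory subunits, against -0.24 for tested protein-coding genes. With total counts 4 accessory subunits were higher, which were NDUFA1 and, at few reads each, NDUFC2, NDUFB5 and NDUFB8. In that setting 7 accessory and all 5 tested core subunits were lower (1066 of all tested genes were higher and 4494 lower). The subunit median was then -0.18, but it stood 0.60 above the median gene there and 0.61 above it with TMM, and 26 of 30 subunits were above the median gene in both. With DESeq2 and without the filter the median gene of 29258 genes was another, and the median of all 37 subunits stood 0.15 and 1.54 above it. Over the 8716 genes alone, with 30 subunits, these settings gave 0.61 and 0.60. Subunit CPM with TMM summed to 5239, 5495 and 6159 in the EV libraries, against 4169, 3913 and 3738 in the WC libraries. Per total counts the order was the reverse, with 4333, 4242 and 4645 CPM in EVs, against 4893, 4823 and 4769 CPM in WC. The groups did not overlap on either scale.

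**Figure D1:**
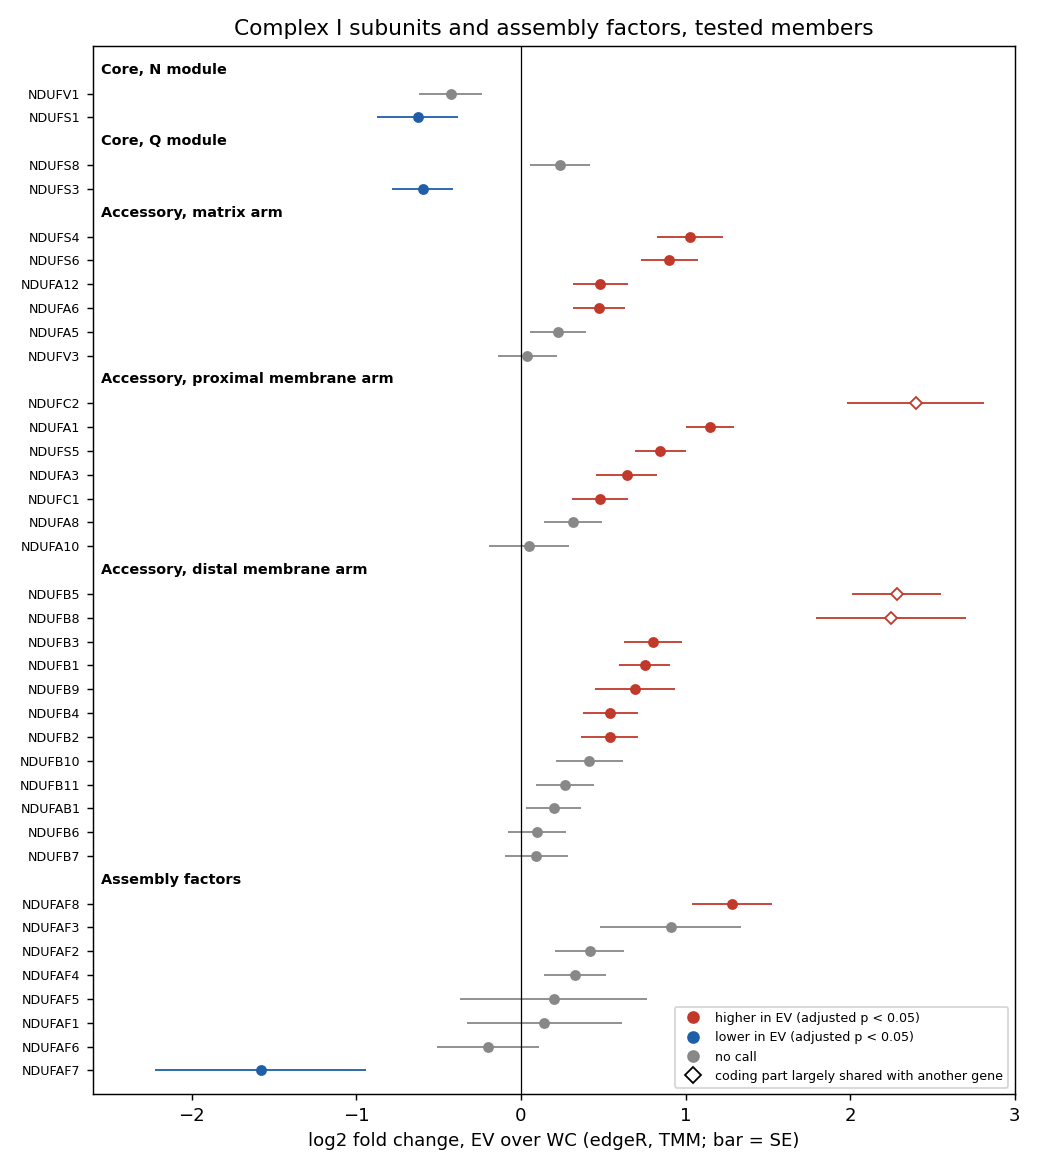
Log2 fold change, EV over WC with TMM scaling, of 29 tested subunits and 8 assembly factors by structural group, with bars for SE. Red points are higher in EVs, blue points lower and grey points not called. Open diamonds mark NDUFC2, NDUFB5 and NDUFB8, whose coding part is largely shared with another gene. The 25 accessory subunits lie between 0.04 and 2.40, and 3 of the 4 core subunits drawn lie below 0. With total counts 10 of these 29 subunits lie above 0.

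Core subunits of the N module oxidize NADH and pass on its electrons. NDUFV1, which binds FMN and NADH, had 107, 90.2 and 73.1 CPM in the EV libraries, against 135, 117 and 118 CPM in the WC libraries. All EV values were below all WC values, as in 30.3% of all tested genes and 32.5% of tested protein-coding genes, but the difference missed the threshold (log2 fold change -0.43, SE 0.19, adjusted p = 0.071). With DESeq2 the adjusted p was 0.041. NDUFS1 is the largest subunit and holds iron-sulfur clusters. It had 85.05, 48.6 and 59.4 CPM in the EV libraries, against 67.3, 116 and 124 CPM in the WC libraries. The groups overlapped, since the first WC library was below the first EV library, and the mean was 64.3 ± 18.7 CPM in EVs and 102 ± 30.6 CPM in WC (SD, n = 3 each). NDUFS1 was lower in EVs (log2 fold change -0.63, SE 0.25, adjusted p = 0.042). With the replicate block, a term for the shared flow cell, the adjusted p was 0.083, with DESeq2 it was 0.068, and it ranged from 0.098 to 0.17 when WC 2, WC 3, EV 2 or EV 3 was left out. NDUFV2, which carries an iron-sulfur cluster near the FMN, had 0, 0 and 1 reads in the EV libraries, against 2, 3 and 7 reads in the WC libraries, too few for a test.

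Q module core subunits bring the electrons to ubiquinone. NDUFS3, encoded at chr11:47565336-47584562 (GRCh38, as for all positions here), had 80.9, 78.6 and 89.03 CPM in the EV libraries, against 136, 117 and 123 CPM in the WC libraries. Every EV library lay below every WC library, and NDUFS3 was lower in EVs (log2 fold change -0.60, SE 0.19, adjusted p = 0.011). The call held in every alternative except with WC thinned to the EV depth, where the adjusted p was 0.056. NDUFS8, another carrier of iron-sulfur clusters, had 170.1, 132 and 174 CPM in the EV libraries, against 157, 129.9 and 119 CPM in the WC libraries, and the groups overlapped (log2 fold change 0.24, SE 0.18, adjusted p = 0.30). Its log2 fold change was -0.41 with total counts. NDUFS7, which carries the last cluster before the quinone, had 0, 1 and 0 reads in the EV libraries, against 1, 1 and 2 reads in the WC libraries and was not tested.

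**Figure D2:**
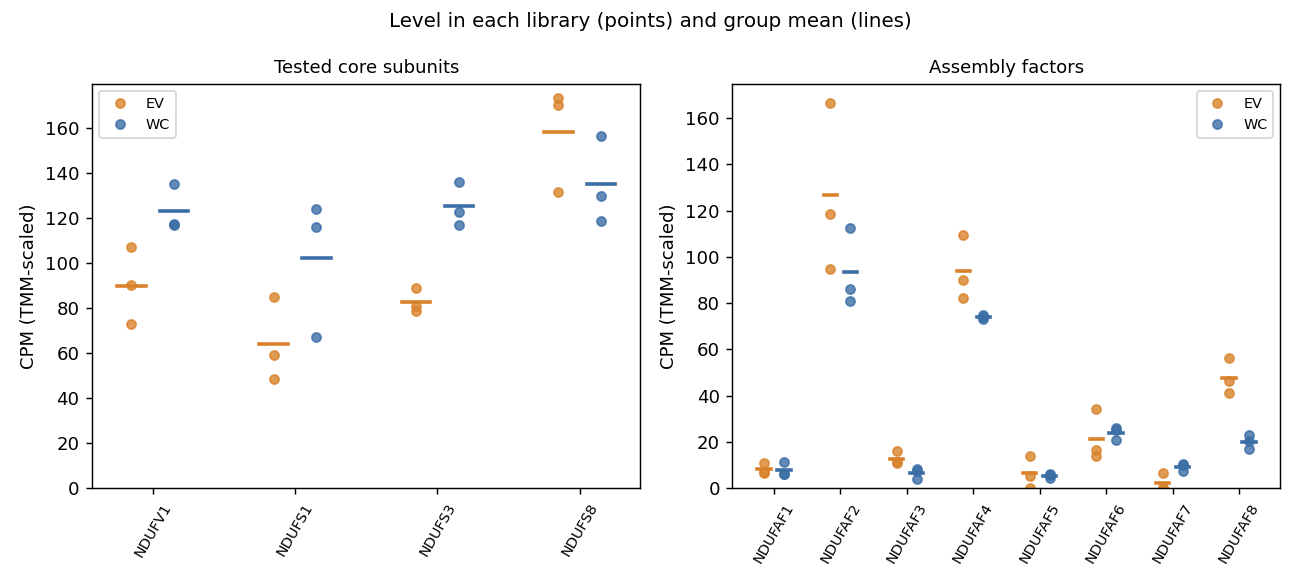
CPM in each library (points) and group mean (lines) of 4 tested core subunits and the 8 assembly factors, EV to the left of WC, with both vertical axes from 0. For NDUFV1 and NDUFS3 the EV points lie below the WC points, and for NDUFAF8 all 3 EV points lie above the WC points. NDUFAF7 is at 0 in 2 EV libraries.

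Accessory subunits surround the core and are needed for its assembly or stability. In the matrix arm 6 of 9 were tested and 4 were higher in EVs (66.7%). Of all tested genes 22.8% were higher, and of tested protein-coding genes 14.9%. NDUFS4, a subunit that holds the N module in place and whose loss causes Leigh syndrome, had 85.05, 76.3 and 98.2 CPM in the EV libraries, against 47.7, 43.1 and 36.4 CPM in the WC libraries. The lowest EV value was above the highest WC value, and NDUFS4 was higher in EVs (log2 fold change 1.03, SE 0.20, adjusted p = 1.8e-04). With total counts its log2 fold change was 0.38 and not called. NDUFS6, which binds zinc, had 206 to 237 CPM in EVs and 104 to 138 CPM in WC and was higher (log2 fold change 0.90, not called with total counts). NDUFA6 and NDUFA12 were higher too, with log2 fold changes of 0.48 each, and were below 0 with total counts. NDUFA6 lost its call without WC 2, WC 3, EV 2 or EV 3 (adjusted p 0.051 to 0.12), and so did NDUFA12 (0.098 to 0.15). NDUFA5 was not called, at 0.23. NDUFV3 had 103, 106 and 119 CPM in the EV libraries, against 109, 103 and 106 CPM in the WC libraries. The groups overlapped (log2 fold change 0.04, SE 0.18, adjusted p = 0.87), and its sign turned in several alternatives. NDUFA2, NDUFA7 and NDUFA9 had too few reads.

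In the proximal membrane arm 7 of 9 were tested and 5 were higher (71.4%, against 22.8% of all tested genes and 14.9% of tested protein-coding genes). The 5 include NDUFC2, which had enough reads for the test in the EV libraries only. NDUFA1, a small membrane subunit encoded at chrX:119871832-119876662, had 759, 847 and 1029.6 CPM in the EV libraries, against 393, 399 and 391 CPM in the WC libraries. The lowest EV value was well above the highest WC value, and the test gave the lowest p among subunits outside the shared genes below (log2 fold change 1.15, SE 0.15, adjusted p = 4.6e-07). Its call held in every alternative, and with total counts the log2 fold change was 0.48. NDUFS5, a subunit of the intermembrane space, was higher with 380 to 457 CPM in EVs and 217 to 256 CPM in WC (log2 fold change 0.85, and 0.19 without a call with total counts). NDUFA3 and NDUFC1 were also higher, at 0.64 and 0.48 (-0.02 and -0.18 with total counts), and NDUFA8, which has the same twin-cysteine fold as NDUFS5, was not called at 0.32. The call of NDUFA3 ended without WC 3 or EV 3 (adjusted p 0.063 and 0.093), and that of NDUFC1 without WC 2, WC 3 or EV 3 (0.098 to 0.14). NDUFA10, related to nucleoside kinases, had 60.4, 32.4 and 31.96 CPM in the EV libraries, against 44.3, 44.9 and 38.1 CPM in the WC libraries, and the groups overlapped (log2 fold change 0.05, SE 0.24, adjusted p = 0.88). NDUFC2 is described below, and NDUFA11 and NDUFA13 had too few reads.

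All 12 accessory subunits of the distal membrane arm were tested and 7 were higher (58.3%). Of all tested genes 22.8% were higher, and of tested protein-coding genes 14.9%. Leaving aside NDUFB5 and NDUFB8, the 7 were NDUFB3, NDUFB1, NDUFB9, NDUFB4 and NDUFB2, at 0.80, 0.75, 0.69, 0.54 and 0.54, of which none was called with total counts. NDUFB3 had 269 to 418 CPM in EVs and 162 to 211 CPM in WC, and NDUFB1, the shortest of the tested subunit transcripts, had 343 to 377 CPM in EVs and 209 to 221 CPM in WC, both without overlap. NDUFB9 lost its call without any 1 of 5 libraries, all but EV 1 (adjusted p 0.051 to 0.18). NDUFB2 lost it without WC 1, WC 2 or EV 3 (0.057 to 0.12) and NDUFB4 without WC 2, WC 3 or EV 2 (0.050 to 0.098). NDUFB10 and NDUFB11 were not called, at 0.42 and 0.27. NDUFAB1, the mitochondrial acyl carrier protein, had 226, 236 and 260.2 CPM in the EV libraries, against 242, 201 and 185 CPM in the WC libraries. Its groups overlapped (log2 fold change 0.20, SE 0.17, adjusted p = 0.35). NDUFB6 had 170.1, 213 and 217 CPM in the EV libraries, against 217, 187 and 152 CPM in the WC libraries, and its groups overlapped as well (log2 fold change 0.10, SE 0.18, adjusted p = 0.68). NDUFB7, a subunit on the intermembrane side, had 87.8, 104 and 119 CPM in the EV libraries, against 109.6, 86.03 and 92.2 CPM in the WC libraries, with overlap (log2 fold change 0.09, SE 0.19, adjusted p = 0.71). In the 3 arms together EV values lay above all WC values in 17 of the 25 tested accessory subunits, against 24.9% of all tested genes and 17.5% of tested protein-coding genes. Both the 17 and the 25 include NDUFC2 and NDUFB8, which had enough reads for the test in the EV libraries only.

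The 3 subunits with the highest log2 fold changes were few in reads. They were the tested members past the thresholds of the study for EV enrichment, which ask for a log2 fold change of 2 or more at an adjusted p no higher than 0.01, and which 4.53% of all tested genes and 1.64% of tested protein-coding genes passed. NDUFC2, a proximal membrane subunit encoded at chr11:78068297-78079862, had 11, 7 and 7 reads in the EV libraries, against 7, 15 and 8 reads in the WC libraries. In CPM this was 15.8 ± 0.585 CPM in EVs and 2.85 ± 0.846 CPM in WC (SD, n = 3 each), without overlap (log2 fold change 2.40, SE 0.42, adjusted p = 4.0e-05). NDUFB8, of the distal arm and at chr10:100523740-100530000, had 6, 6 and 9 reads in the EV libraries, against 7, 12 and 9 reads in the WC libraries, and again the CPM did not overlap (log2 fold change 2.25, SE 0.46, adjusted p = 2.6e-04). NDUFB5, also distal and at chr3:179604690-179627647, had 28, 26 and 27 reads in the EV libraries, against 24, 49 and 36 reads in the WC libraries. Its level was 53.4 ± 13.00 CPM in EVs and 10.4 ± 2.13 CPM in WC (SD, n = 3 each), with each EV library above each WC library (log2 fold change 2.28, SE 0.27, adjusted p = 1.6e-07). NDUFC2 and NDUFB8 reached the minimum of the expression filter (5.95 CPM per total counts) in the EV libraries only, so they entered the test through the group in which they were high. Without these 2 genes 14 of 28 tested subunits were higher, against 22.8% of all tested genes and 14.9% of tested protein-coding genes. The NDUFB5 call held in all 13 alternatives. NDUFC2 kept its call in the 12 in which it was tested, all but WC thinned, and NDUFB8 in 9, since it was not tested with WC thinned or without any 1 of the WC libraries. These 3 genes share 86.8%, 83.9% and 68.3% of their coding part with another annotated gene, such as NDUFC2-KCTD14 for NDUFC2, and reads over several genes were left unassigned as ambiguous by the counting of the study.

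Shared exons went with low gene counts among subunits. In GENCODE v44, 9 of 37 subunits shared at least 40% of their coding part with exons of another gene. For 7 of them the partner was a protein-coding gene on the same strand, for NDUFV2 it was an lncRNA on the same strand, and for NDUFS7 an lncRNA on the opposite strand. These 9 subunits had 1 to 190 reads over the 6 libraries (median 17), and 3 of them were tested. The other 28 had 21 to 5424 reads (median 1594), and 27 were tested. The exception was NDUFA2, with 21 reads and 18.2% of its coding part shared. The partner genes themselves had at most 2 reads. Without the 9 subunits, a choice made after seeing the data, 13 of 27 tested subunits were higher and 3 lower (48.1% and 11.1%). Of all tested genes 22.8% were higher and 21.4% lower, and of tested protein-coding genes 14.9% and 22.2%. The median log2 fold change of the 27 was 0.42. The 22 accessory subunits among these 27 had a median of 0.48, and EV values lay above all WC values in 14 of them. This was so in 24.9% of all tested genes and 17.5% of tested protein-coding genes.

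The isoform table, in which reads were assigned to transcript models, gave other values for the same subunits. It lists the authors' mean normalized count over all 6 libraries, as does the gene table, and each table was normalized on its own. NDUFA13, also known as GRIM-19, stood at 482 in the isoform table and 0.064 in the gene table. NDUFC2 stood at 329.7 and 11.7, NDUFA11 at 279 and 3.0, and NDUFA2 at 221 and 4.3. For the 9 subunits with at least 40% shared, the median ratio of isoform to gene value was 18.5, and for the 28 others it was 0.86. In these medians NDUFA7, NDUFS1 and NDUFS3, without a listed isoform, count as 0. NDUFC1 went the other way, with 9.5 in the isoform table and 214 in the gene table, and NDUFS1 and NDUFS3 had no isoform model. What part the shared exons have in the log2 fold changes was not tested.

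**Figure D3:**
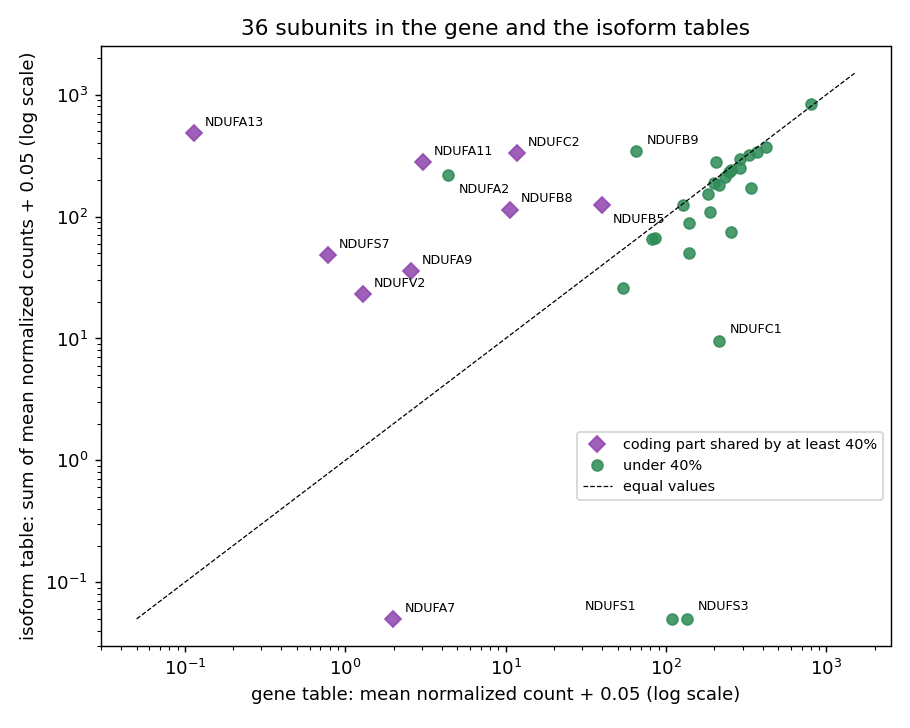
Sum of the authors' mean normalized isoform counts against their mean normalized gene count, for 36 subunits on log axes after adding 0.05. Diamonds are the 9 subunits that share at least 40% of their coding part with another gene, circles 27 others, and the dashed line marks equal values. Of the diamonds 8 lie above the line, and NDUFA7, NDUFS1 and NDUFS3 lie at the bottom because no isoform of theirs is listed.

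Transcript models were made over all libraries and carry a predicted coding class. For subunits there were 211 models in 35 genes, 109 of them annotated transcripts, with 121 productive, 54 with a premature stop, 34 without a start codon and 2 without a stop codon. Of these, 81 models were listed in the isoform table, and productive ones held 81.6% of the summed mean counts, against 89.8% over all protein-coding genes. Models without a start codon held 11.9% (3.92% over all coding genes) and those with a premature stop 6.40% (5.95%). The share without a start came mostly from NDUFA13-204 at 482, NDUFS6-201 at 183 and NDUFB5-201 at 74.9. For NDUFA3 the single listed model was unannotated, at 190.3, with a premature stop. NDUFB9 listed 6 models, of which NDUFB9-201 held 59.4% and models with a premature stop 30.6%. The 8 assembly factors had 52 models, of which 8 were listed. NDUFAF2 had 26.0% in models with a premature stop, while NDUFAF1, NDUFAF5 and NDUFAF7 had none listed. These are pooled values, so EV and WC were not compared by isoform.

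Of the 8 assembly factors, all tested, 1 was higher in EVs (12.5%), 1 lower (12.5%) and 6 were not called. Among all tested genes 22.8% were higher and 21.4% lower. The assembly factor median log2 fold change was 0.26, against 0.48 for all 30 tested subunits and 0.54 for accessory subunits. The difference between these lists was not tested. Relative to the median gene, the assembly factor median was at 0.39 with TMM and at 0.40 with total counts, where its own value was -0.39. With DESeq2 over 29258 genes it was at -0.05, with 4 of 8 above the median gene, and without the filter 1.33, whereas over the 8716 genes alone these settings gave 0.41 and 0.40. After a lowess fit on exon length the medians were 0.43 for assembly factors and 0.42 for all subunits. These are distances from the fit, with tested protein-coding genes at a median of 0.0014. Before the fit that median was -0.24, so the 0.43 and 0.42 are not on the scale of the 0.26 and 0.48. Summed assembly factor CPM was 5.42%, 6.36% and 5.30% of subunit CPM in the EV libraries, against 6.24%, 5.80% and 6.29% in the WC libraries, which overlap.

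NDUFAF8, a partner of NDUFAF5 encoded at chr17:81239305-81241310, had 56.2, 46.3 and 41.1 CPM in the EV libraries, against 20.6, 16.8 and 22.98 CPM in the WC libraries. All EV values exceeded all WC values, and the call held in every alternative (log2 fold change 1.28, SE 0.24, adjusted p = 1.1e-04). NDUFAF5, a hydroxylase that modifies NDUFS7, had 5.49, 13.9 and 0 CPM in the EV libraries, against 4.47, 5.62 and 6.11 CPM in the WC libraries. The EV libraries spread on both sides of the WC range (log2 fold change 0.20, SE 0.57, adjusted p = 0.80). NDUFAF7, a methyltransferase of the mitochondrial matrix, had 5, 0 and 0 reads in the EV libraries, against 22, 41 and 34 reads in the WC libraries. It was lower in EVs (log2 fold change -1.58, SE 0.64, adjusted p = 0.047) on 5 EV reads in all, and passed the filter through the WC libraries only, and the call ended with DESeq2 (0.12), with the replicate block (0.083) and without EV 2 or EV 3 (0.18 and 0.19).

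NDUFAF3 and NDUFAF4 work together on the Q module. NDUFAF3 had 10.97, 11.6 and 15.98 CPM in the EV libraries, against 8.59, 7.40 and 4.07 CPM in the WC libraries. The groups did not overlap, at few reads, and the adjusted p missed the threshold (log2 fold change 0.91, SE 0.43, adjusted p = 0.087). NDUFAF4 had 82.3, 90.2 and 109.6 CPM in the EV libraries, against 74.9, 73.3 and 73.9 CPM in the WC libraries, also without overlap and without a call (log2 fold change 0.33, SE 0.19, adjusted p = 0.16). NDUFAF6, which also acts early on the Q module, had 16.5, 13.9 and 34.2 CPM in the EV libraries, against 25.1, 20.9 and 25.9 CPM in the WC libraries. The third EV library was above every WC library and the other two below (log2 fold change -0.20, SE 0.31, adjusted p = 0.63). NDUFAF1, a member of the complex that assembles part of the membrane arm, had 10.97, 6.94 and 6.85 CPM in the EV libraries, against 6.18, 6.13 and 11.3 CPM in the WC libraries, with overlap (log2 fold change 0.14, SE 0.47, adjusted p = 0.83). NDUFAF2, a relative of NDUFA12 that holds its place during assembly, had 94.6, 167 and 119 CPM in the EV libraries, against 113, 86.3 and 80.9 CPM in the WC libraries. The second EV library was highest and the groups overlapped (log2 fold change 0.42, SE 0.21, adjusted p = 0.11). Without EV 1 its log2 fold change was 0.58 and called (adjusted p = 0.015).

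Assembly factors with other names were also read from the fit over all genes. Of 13 such genes 11 were tested, with a median log2 fold change of -0.36. Of the 11, 1 was higher (9.1%, against 22.8% of all tested genes) and 2 were lower (18.2%, against 21.4%). With total counts DMAC1 was still higher, at 0.51, while 8 were lower, and the 10 genes other than DMAC1 lay between -3.31 for ACAD9 and -0.16 for DMAC2. DMAC1, a factor for the distal arm, averaged 72.6 ± 15.4 CPM in EVs and 32.04 ± 3.13 CPM in WC (SD, n = 3 each) and was higher (log2 fold change 1.16, SE 0.22, adjusted p = 9.3e-05). TMEM70, which acts on complex I and ATP synthase, averaged 22.7 ± 10.5 CPM in EVs and 54.8 ± 8.18 CPM in WC (SD, n = 3 each) and was lower (log2 fold change -1.34, SE 0.29, adjusted p = 4.3e-04). ACAD9, an acyl-CoA dehydrogenase that works with NDUFAF1 and ECSIT, had 2, 1 and 0 reads in the EV libraries, against 37, 50 and 40 reads in the WC libraries. It was lower in EVs (adjusted p = 9.7e-04), and the ratio of EV to WC level was 0.153 with an exact 95% counting interval of 0.0312 to 0.458. ACAD9 passed the filter through the WC libraries only.

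The mitochondrially encoded core subunits were lower in EVs, with log2 fold changes larger in size than those of every tested nuclear member. MT-ND1 had 45.3, 69.4 and 63.9 CPM in the EV libraries, against 579, 462 and 421 CPM in the WC libraries. Its highest EV value was far below its lowest WC value (log2 fold change -3.07, SE 0.21, adjusted p = 8.5e-12). All 7 MT-ND genes were lower in EVs, each without overlap, with log2 fold changes between -3.69 for MT-ND4 and -2.83 for MT-ND5 and a median of -3.07. Of all tested genes 21.4% were lower, and in 30.3% all EV values were below all WC values. Of tested protein-coding genes these shares were 22.2% and 32.5%. Summed MT-ND levels were 325, 451 and 434 CPM in the EV libraries, against 4305, 3462 and 4667 CPM in the WC libraries. The MT-ND genes were also lower with total counts, at log2 fold changes of -4.35 for MT-ND4 to -3.49 for MT-ND5, whereas the sum of nuclear subunits changed its order with the scaling, as given above.

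NDUFA4 was first taken for a complex I subunit and is now placed in complex IV. It had 801, 1133 and 1169 CPM in the EV libraries, against 749, 700.0 and 627 CPM in the WC libraries, with every EV value above every WC value, and was higher (log2 fold change 0.58, SE 0.15, adjusted p = 0.0029). With total counts its log2 fold change was -0.09. NDUFA4L2, its hypoxia-induced relative, had 0, 0 and 0 reads in the EV libraries, against 2, 3 and 2 reads in the WC libraries.

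Pseudogenes of the NDUF family numbered 65, of which 35 had a read and 7 were tested. Relative to the other genes, with TMM, 6 of the 7 were higher in EVs and 0 lower by edgeR, and 0 were lower at an unadjusted p under 0.05. Of all 1427 tested pseudogenes 62.9% were higher and 11.4% lower. With total counts NDUFS5P3 alone was called, at a log2 fold change of 2.20, and NDUFA4P1 and NDUFAF2P1 were below 0, at -0.06 and -0.33. NDUFS5P3, which is among the 6, passed the expression filter through the EV libraries only, the group in which it was high. NDUFV2P1, shown above with NDUFV2, had 242, 98 and 138 reads in the EV libraries, against 545, 707 and 597 reads in the WC libraries, or 2327 reads in all, while NDUFV2 had 13. Its transcript is 98.1% identical to that of NDUFV2 over 694 nt, and it was higher in EVs (log2 fold change 0.70, SE 0.17, adjusted p = 0.0015). NDUFA4P1 had 72.3%, 77.3% and 78.5% as many reads as NDUFA4 in the EV libraries, against 73.9%, 76.2% and 73.7% in the WC libraries. It is 97.6% identical over 246 nt, and its log2 fold change of 0.61 was next to the 0.58 of NDUFA4. NDUFAF2P1 had 82.6%, 80.6% and 76.9% as many reads as NDUFAF2 in the EV libraries, against 86.0%, 84.3% and 86.0% in the WC libraries, at 98.4% identity over 510 nt, and was not called (0.32). NDUFB1P1 had 28.4% to 32.1% of the NDUFB1 reads in EVs and 27.9% to 31.9% in WC. NDUFA5P11 had 38.3% to 54.3% of the NDUFA5 reads in EVs and 23.3% to 31.2% in WC, without overlap, and NDUFB4P12 had 15.1% to 23.8% of the NDUFB4 reads in EVs and 11.9% to 14.8% in WC. Their log2 fold changes were 0.78, 0.98 and 1.09. NDUFS5P3 had 10, 15 and 9 reads in the EV libraries, against 10, 14 and 6 reads in the WC libraries and was highest, at 2.85. Since the handling of reads that fit several places is not given in the sources used here, reads of a member and its copy are uncertain.

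Most subunit transcripts are short. The canonical transcripts of the 30 tested subunits had a median length of 694 nt, from 317 nt for NDUFB1 to 11660 nt for NDUFS1, against 3273 nt for tested protein-coding genes. Spearman's rho between log2 fold change and length was -0.47 across the 30 subunits, -0.50 across the 38 tested subunits and assembly factors, and -0.24 across 6759 coding genes. Genes are not independent replicates, and all these points come from the same 6 libraries. Below 600 nt the median log2 fold change was 0.75 for 9 subunits and 0.85 for 151 coding genes. From 600 to 1000 nt it was 0.48 for 11 subunits and 0.34 for 358 coding genes, and from 1000 to 2000 nt it was -0.16 for 4 subunits and -0.12 for 1278 coding genes. At 2000 nt or more it was 0.14 for 6 subunits and -0.35 for 4972 coding genes, and NDUFC2 and NDUFB5 are 2 of these 6. These are annotated lengths, and the transcript models of the study can differ from them. The NDUFC2 models had 444 and 588 nt and those of NDUFV3 424 to 1519 nt, while those of NDUFA5 ran from 430 to 8234 nt. Model lengths were not compared with those of other coding genes. The core subunit NDUFS3 is 894 nt long and was lower in EVs, while the other 6 called subunits from 600 to 1000 nt were higher. What part length has in these differences was not tested.

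**Figure D4:**
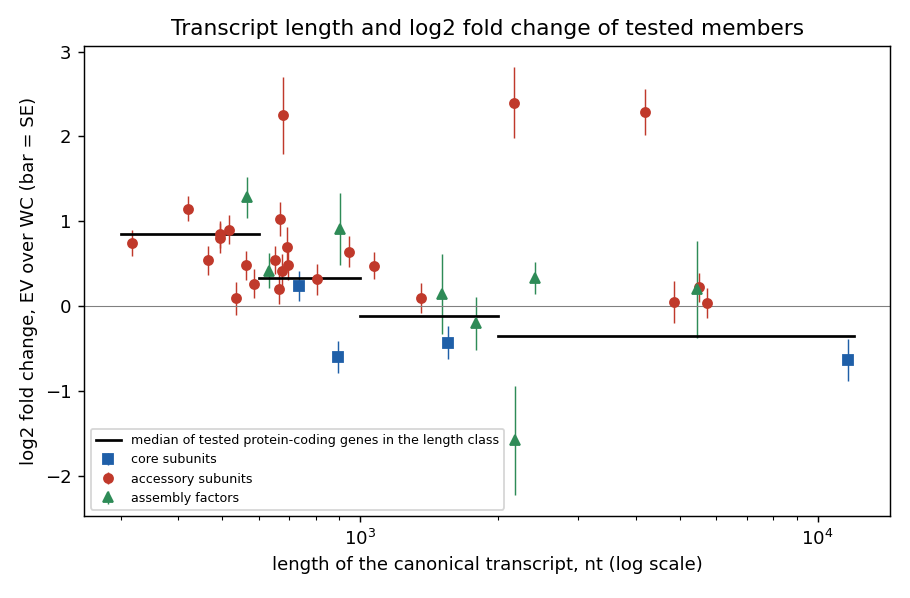
Log2 fold change, EV over WC with TMM scaling and bars for SE, against the length of the canonical transcript on a log axis, for 29 tested subunits and 8 assembly factors. Black lines are the medians of tested protein-coding genes in 4 length classes, at 0.85, 0.34, -0.12 and -0.35. Subunits under 600 nt lie around the first line, and NDUFC2 and NDUFB5, drawn at their annotated lengths, lie far above the last.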

How the data were processed

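The authors basecalled the nanopore reads with Guppy, mapped them to GRCh38 (hg38) with minimap2 and counted them per GENCODE v41 gene with featureCounts in long-read mode, and the strand setting is not given in the sources used here. Every test used the gene counts as the authors deposited them, unnormalized and per library. The deposited signal values are the authors' mean DESeq2-normalized counts per gene and per FLAIR isoform. The deposited fold changes and p-values of the authors were not used.

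The count table has 68247 lines for 68201 gene IDs. Genes were tested in R 4.3.3 with edgeR 4.0.16 (TMM, its expression filter, robust quasi-likelihood fit, Benjamini-Hochberg adjustment over 8716 genes). CPM were computed with TMM factors of 0.765 to 0.839 for EV and 1.20 to 1.31 for WC libraries. Gene positions, lengths and shared exons came from GENCODE v44, where 61757 IDs matched. Copies were aligned with blastn 2.17.0. On simulated data from these counts, edgeR found 10.6%, 51%, 93.9% and 100% of genes changed by 0.5, 1, 2 and 3 on the log2 scale, and 0.0593% of 8437 unchanged genes. The simulation held few changed genes and a common dispersion of 0.0184, unlike the data, so these rates do not carry over to the members. Counting intervals and spreads do not cover PCR copies, which carry no molecular tags.

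Per the study's methods, the EV and WC library of a replicate came from 1 specimen and shared a flow cell, so the numbers pair the libraries, although the deviations of same-number libraries correlated only at 0.062, 0.024 and 0.0044. EV 2 and EV 3 were the most alike of all replicate pairs (chi-square per degree of freedom 1.17, against 3.26 to 5.83 for the others), but still differed, and were kept as 2 libraries. Alternatives were RLE and total-count scaling, DESeq2 1.42.0, no filter, a mean of 5 reads, WC thinned to 674116 reads, the replicate block, leaving out each library and a lowess fit on exon length. The members and lists were chosen with earlier results of these data known. Library values were given for core subunits, assembly factors, the 5 highest and 5 lowest accessory subunits, NDUFA4 and MT-ND1. One member that enters the counts, sums and medians is not reported by name here. Other software was pandas 2.3.3, statsmodels 0.14.6, scipy 1.17.1 and matplotlib 3.10.9 in Python 3.11.15.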

Additional observations from a re-analysis of the deposited data

How the results depend on the processing

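Of 22 called members, 5 (NDUFA1, NDUFC2, NDUFB5, NDUFB8 and NDUFAF8) kept the call in every alternative that tested them (NDUFC2 in 12 of 13, NDUFB8 in 9 of 13), and 5 more lost it with total counts alone. Calls of 13 members ended with total counts, 8 with DESeq2, 8 without the filter, 5 with WC thinned, 3 with a mean of 5 reads and 10 without at least 1 library. RLE scaling changed no member's call. With the replicate block, which pairs the libraries of a flow cell, 2 calls ended (NDUFS1 and NDUFAF7), so 0 assembly factors were lower at an adjusted p under 0.05, and NDUFA10 was at -0.01, with no other change of call. With DESeq2 and with WC thinned 0 assembly factors were lower as well. At an unadjusted p under 0.05 the number lower was 1 with the block, 1 with DESeq2 and 0 of the 4 tested with WC thinned.

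Across all tested genes, total counts gave 1066 higher and 4494 lower, and thinned WC libraries 1311 and 1224. Subunits numbered 4 higher and 12 lower of 30 with total counts, 10 higher of 37 without the filter and 10 higher of 28 with WC thinned. Without the filter, which adds genes with few reads to the scaling and the test, the median was 0.27 over all 37 subunits. With total counts 2 assembly factors were lower, and the medians were -0.18 for subunits and -0.39 for assembly factors. After the lowess fit on exon length, which put the median of tested protein-coding genes at 0.0014, the medians were 0.42 for subunits and 0.43 for assembly factors. Leaving out each library gave 9 to 16 subunits higher and 1 to 4 lower, and 1 to 2 assembly factors higher and 0 to 1 lower.

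With total counts the log2 fold change was -0.41 for NDUFS8, -0.62 for NDUFV3, -0.43 for NDUFA5, -0.18 for NDUFA6, NDUFA12 and NDUFC1, -0.0163 for NDUFA3, -0.34 for NDUFA8, -0.60 for NDUFA10, -0.13 for NDUFB2, -0.11 for NDUFB4, -0.56 for NDUFB6 and NDUFB7, -0.23 for NDUFB10, -0.39 for NDUFB11, -0.46 for NDUFAB1, -0.51 for NDUFAF1, -0.24 for NDUFAF2, -0.33 for NDUFAF4, -0.45 for NDUFAF5 and -0.09 for NDUFA4. DESeq2 gave -0.0729 for NDUFV3, -0.0836 for NDUFA10, -0.0158 for NDUFB6 and -0.0177 for NDUFB7. Without the filter the values were -0.17 for NDUFV3, -0.15 for NDUFA10, -0.12 for NDUFB6 and NDUFB7, -0.0165 for NDUFAB1, -0.0582 for NDUFAF1 and -0.0013 for NDUFAF5. NDUFV3 was at -0.0166 with a mean of 5 reads and at -0.0911 with WC thinned, where NDUFA10 was at -0.0271. Leaving out each library moved NDUFV3 between -0.0558 and 0.0564, NDUFA10 between -0.43 and 0.19, NDUFB6 between -0.10 and 0.18, NDUFB7 between -0.0497 and 0.19, NDUFAF1 between -0.23 and 0.25 and NDUFAF5 between -0.67 and 0.66. For these turns of sign other than the change of scale with total counts, the cause was not tested. Members without a call may still differ. The simulation, which found 51% of log2 changes of 1, held few changed genes and gave every gene the same dispersion. Far more genes were called in the data, so its rates are not those of the members.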
